A study of Mus musculus with 6 samples.

Results

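Prohormone processing enzymes cut and trim the inactive precursors of peptide hormones inside secretory granules. The members described here are 8 genes fixed by name: the convertases Pcsk1, Pcsk2 and Furin, the convertase partners Pcsk1n and Scg5, the carboxypeptidases Cpe and Cpd, and the amidating enzyme Pam. All 8 were found in the deposited tables, among 29725 genes with a count in any library, and all 8 were among the 16072 genes that passed the low-count filter. They were measured by RNA sequencing in pancreatic islets, the hormone-secreting cell clusters of the pancreas. The islets came from wild-type mice (WT) and from transgenic mice (TG) whose beta cells carry a transgene for the microRNA miR-203. Mice of both genotypes were labelled male and 10 weeks old and had been fasted for 12 h. Each genotype had 3 libraries, and the labels neither state that these came from separate animals nor name the promoter of the transgene. All p-values therefore reflect the scatter of these libraries alone, part of which may be technical.

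In the beta cell, proinsulin is cut at pairs of basic residues by PC1/3, the product of Pcsk1, and by PC2, the product of Pcsk2. Carboxypeptidase E, from Cpe, then removes the basic residues left at the cut ends. PC2 also makes glucagon from its precursor in alpha cells, and it needs the chaperone 7B2, the product of Scg5, to mature. ProSAAS, from Pcsk1n, inhibits PC1/3. Furin and carboxypeptidase D act earlier, mainly in the trans-Golgi network, on many secreted proteins and receptors. Pam encodes the copper-dependent enzyme that gives peptides such as amylin and pancreatic polypeptide their C-terminal amide.

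Libraries held 20176456 to 27482339 counts. The labels assign 4 libraries (WT 1 and 2, TG 1 and 2) to a first set of tables and WT 3 with TG 3 to a second set, and the table was a term of the fit. The second table's libraries stood apart: Xist had 25145 and 27240 counts in WT 3 and TG 3 and between 4 and 13 in the other libraries. In addition, 4 Y-linked genes together had 16 and 1 counts against 5463 to 7468. That is the pattern of female tissue, although every mouse was labelled male. A difference between the tables therefore cannot be told apart from a difference of sex. Islet identity was checked by the hormone genes, which took 12.2% to 24.2% of counts, while acinar markers of the surrounding exocrine tissue took 0.0128% to 0.568%. Beta-cell markers took 21.9% (WT 1), 21.3% (WT 2) and 12.7% (WT 3) of all reads, against 5.98% (TG 1), 20.6% (TG 2) and 6.10% (TG 3). The 8 processing genes together took 0.876% (WT 1), 0.802% (WT 2) and 1.06% (WT 3) of all reads, against 1.23% (TG 1), 0.907% (TG 2) and 1.40% (TG 3). The 95% Wilson intervals of these shares ran from 0.798% to 0.805% for the lowest and from 1.40% to 1.41% for the highest, and they cover counting error only.

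The sequences that bear on the design are the microRNA and its possible matches in the members. Mature miR-203-3p is shown from RefSeq (chr12:112130927-112130948, plus strand, GRCm38.p6), with its seed, bases 2 to 8, in capitals.
mmu-miR-203-3p: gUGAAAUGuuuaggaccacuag
The reverse complement of the seed, CATTTCA, was searched on the transcript strand in the longest annotated 3′ UTR of each member (GENCODE M21, GRCm38). Of the 8 members, 3 held a match, which is shown in capitals within 30 bases.
Pcsk1 (chr13:75132614-75132620, plus strand): ctaacacctccgCATTTCAtatctcacaag
Pcsk2 (chr2:143815545-143815551, plus strand): tcattgagaattCATTTCAcattaatggtc
Cpd (chr11:76781302-76781308, minus strand): tagcatttcctaCATTTCAgcccttctgtg
These 3 genes had the 3 longest 3′ UTRs of the 8, at 2542, 2474 and 3760 bases, where the median over all tested protein-coding genes with an annotated stop codon was 1173 bases. Of those 13904 genes, 17.2% held the same letters. In none of the 3 members was the match followed by an A. The Pcsk1 match lies beyond 75132498, where the authors' model of that gene ends. No match was found in Pcsk1n, Scg5, Cpe, Pam or Furin, which says only that these letters are not in those UTRs.

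In the islet libraries 6 of the 8 processing genes had a higher fitted level in TG and 2, Pcsk1 and Pcsk2, a lower one, where 48.1% and 51.9% of all tested genes did. Scg5, Cpe and Pam lay above every WT library in every TG library, with fitted levels 1.60-fold, 1.33-fold and 1.58-fold those of WT, a pattern of 6.96% of all tested genes. Pcsk2 lay below every WT library in every TG library, at 0.727-fold, a pattern of 6.42% of all tested genes. None of these differences passed the threshold, a Benjamini-Hochberg adjusted p under 0.05 over all genes tested with edgeR, which called 0 of 16072 genes (0%) and gave 14.1% of them an unadjusted p under 0.05. The other tools, DESeq2 and limma-voom, called 4.68% and 0 genes. At an unadjusted p under 0.05 Scg5 and Pam were among the 9.32% of all genes that were higher in TG and Pcsk2 among the 4.81% that were lower. Levels are given as CPM, read counts scaled to the library size after TMM adjustment, and log2 fold changes are TG over WT. An islet library mixes cell types, so fewer cells of a type and less RNA per cell cannot be told apart.

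**Figure D1:**
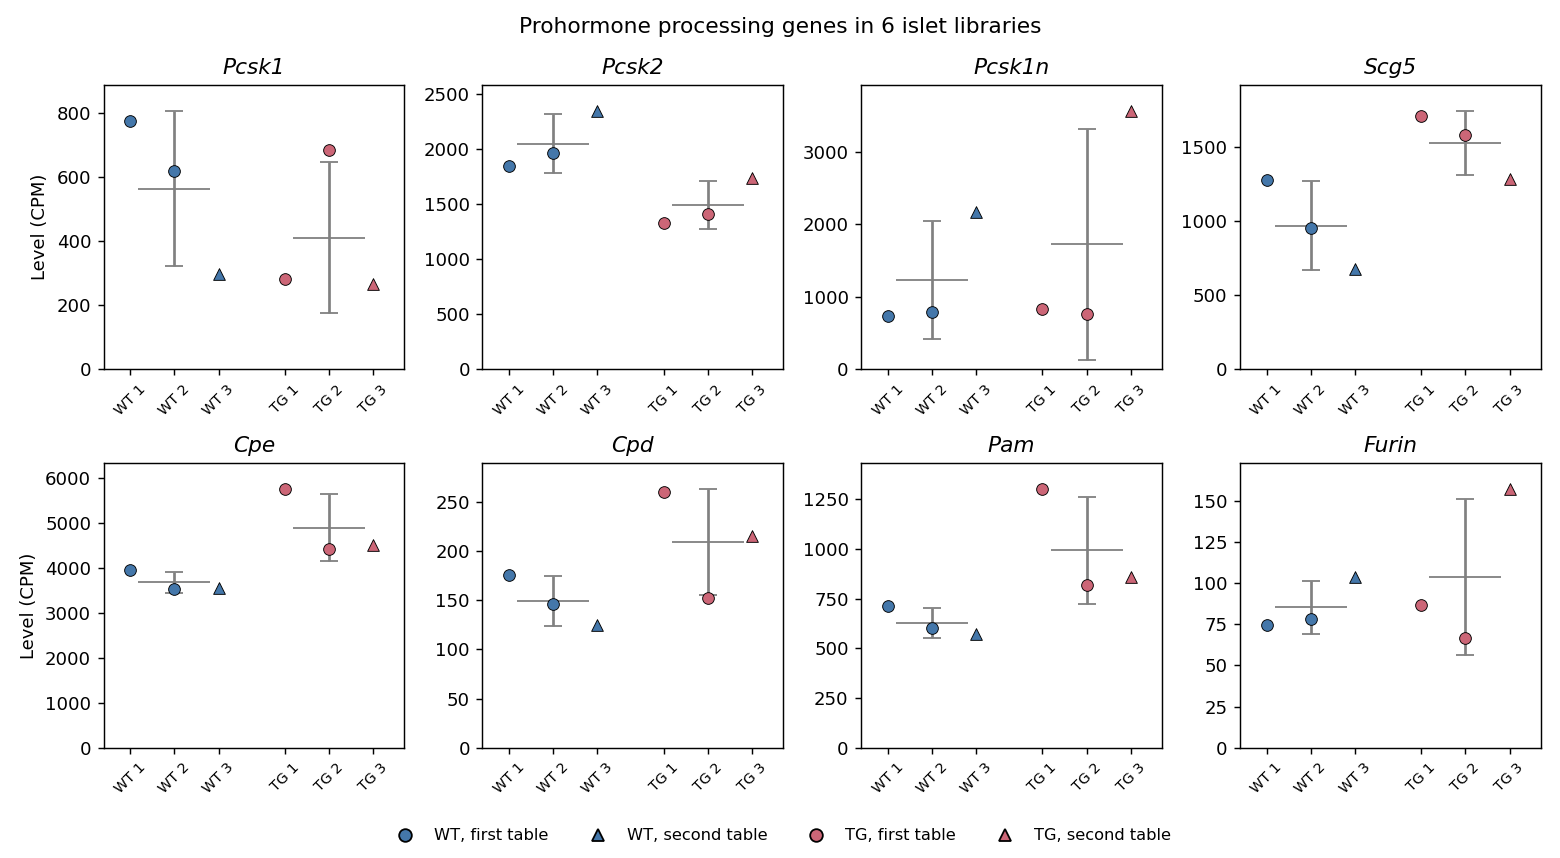
Level of each processing gene in CPM (vertical axes from 0) in the 6 libraries; circles are libraries of the first table, triangles of the second, and grey bars the mean ± SD over the 3 libraries of a genotype. Pcsk2 is lower, and Scg5, Cpe and Pam are higher, in every TG library than in every WT library, whereas Pcsk1, Pcsk1n, Cpd and Furin overlap.

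Pcsk1 (ENSMUSG00000021587, chromosome 13, 75089826 to 75132498, plus strand of GRCm38) varied more within each genotype than between them. It was at 775 (WT 1), 621 (WT 2) and 299 (WT 3) CPM against 283 (TG 1), 684 (TG 2) and 267 (TG 3) CPM. WT 1, WT 2 and TG 2 were thus high, and TG 1 and both libraries of the second table low, so the genotypes overlapped. The means were 565 ± 243 CPM in WT and 412 ± 236 CPM in TG (SD, n = 3). The log2 fold change of Pcsk1 was -0.41 (SE 0.33, edgeR adjusted p = 0.610), of which TG 1 carried most: relative to the WT level of its own table Pcsk1 lay at -1.29 in TG 1, -0.02 in TG 2 and -0.16 in TG 3 (log2). The fitted value was -0.09 without TG 1, -0.26 without WT 1 and -0.81 without TG 2 (edgeR adjusted p = 0.117), so single libraries moved it both ways.

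Pcsk2 (ENSMUSG00000027419, chromosome 2, 143546156 to 143816285, plus strand) differed by nearly the same amount in each TG library. It was at 1845 (WT 1), 1962 (WT 2) and 2350 (WT 3) CPM against 1332 (TG 1), 1411 (TG 2) and 1737 (TG 3) CPM. The 3 TG libraries were all below the lowest WT library, WT 1. Relative to the WT level of their own table they lay at -0.51, -0.43 and -0.44 on the log2 scale. The mean was 2052 ± 264 CPM in WT and 1493 ± 214 CPM in TG (SD, n = 3), with a log2 fold change of -0.46 (SE 0.17, edgeR unadjusted p = 0.0337, adjusted p = 0.310). DESeq2 called Pcsk2 (adjusted p = 0.0142), and over all alternatives its adjusted p spanned 0.0142 to 0.989.

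Furin (ENSMUSG00000030530, chromosome 7, 80388585 to 80405436, minus strand), the convertase found in nearly all cell types, was the least abundant member. It was at 74.4 (WT 1), 78.0 (WT 2) and 104 (WT 3) CPM against 86.7 (TG 1), 66.9 (TG 2) and 157 (TG 3) CPM. TG 2 was the lowest of all libraries and TG 3 the highest, and the genotypes overlapped. Its log2 fold change of 0.21 (SE 0.18, edgeR adjusted p = 0.630) was 0.01 without WT 3 or TG 3 and 0.36 without TG 2 (adjusted p = 0.140).

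Pcsk1n (ENSMUSG00000039278, X chromosome, 7919822 to 7924410, plus strand) separated the tables rather than the genotypes. It was at 733, 790, 834 and 768 CPM in WT 1, WT 2, TG 1 and TG 2 of the first table, and at 2175 and 3567 CPM in WT 3 and TG 3 of the second. Within the first table the genotypes lay close together, and in the second TG 3 was the higher library. Its log2 fold change was 0.29 (SE 0.21, edgeR adjusted p = 0.568) with the table as a term, 0.48 without that term and 0.07 without WT 3 or TG 3. The interaction of table and genotype was 0.64 on the log2 scale for Pcsk1n, and neither it (adjusted p = 0.9999) nor the interaction of another member passed in edgeR, which called 0% of all genes (366 had an unadjusted p under 0.05). The second table's libraries also differed in the X- and Y-linked transcripts and in the acinar share given above. The part of these differences in the Pcsk1n level was not tested.

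Scg5 (ENSMUSG00000023236, chromosome 2, 113776362 to 113829121, minus strand), the chaperone of PC2, was higher in every TG library although Pcsk2 itself was lower. It was at 1277 (WT 1), 952 (WT 2) and 679 (WT 3) CPM against 1711 (TG 1), 1581 (TG 2) and 1285 (TG 3) CPM. The lowest TG library, TG 3, was only slightly above the highest WT library, WT 1, but these are of different tables. Relative to the WT level of its own table Scg5 lay at 0.63, 0.52 and 0.92 in TG 1, TG 2 and TG 3 on the log2 scale. The log2 fold change of Scg5 was 0.68 (SE 0.20, edgeR unadjusted p = 0.0123, adjusted p = 0.245), and it was the smallest p of the members. DESeq2 called Scg5 (adjusted p = 0.0142, with 0.0142 to 0.971 over all alternatives).

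Cpe (ENSMUSG00000037852, chromosome 8, 64592558 to 64693040, minus strand) was the most abundant member in every library. It was at 3950 (WT 1), 3538 (WT 2) and 3551 (WT 3) CPM against 5751 (TG 1), 4411 (TG 2) and 4512 (TG 3) CPM. All TG libraries were above all WT libraries, with TG 1 farthest and TG 2 and TG 3 close together. The means were 3679 ± 234 CPM in WT and 4891 ± 746 CPM in TG (SD, n = 3), and the log2 fold change was 0.41 (SE 0.21, edgeR adjusted p = 0.432).

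Cpd (ENSMUSG00000020841, chromosome 11, 76778424 to 76847018, minus strand), the membrane-bound carboxypeptidase, was higher in TG 1 and TG 3 only. It was at 176 (WT 1), 146 (WT 2) and 125 (WT 3) CPM against 260 (TG 1), 153 (TG 2) and 216 (TG 3) CPM. TG 2 lay between WT 1 and WT 2, so the genotypes overlapped. The log2 fold change of Cpd was 0.50 (SE 0.23, edgeR adjusted p = 0.384). Without TG 2 it was 0.72, and Cpd then passed in edgeR (adjusted p = 0.0223, with 0.0223 to 0.9997 over all alternatives), in a fit that called 13.2% of all genes. Without TG 1 the value was 0.30 (adjusted p = 0.715).

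Pam (ENSMUSG00000026335, chromosome 1, 97795114 to 98095646, minus strand) was highest in TG 1. It was at 712 (WT 1), 603 (WT 2) and 570 (WT 3) CPM against 1301 (TG 1), 817 (TG 2) and 859 (TG 3) CPM. Every TG library lay above every WT library, and the log2 distance from the WT level of the same table was 0.99, 0.32 and 0.59. The mean was 628 ± 74.3 CPM in WT and 992 ± 268 CPM in TG (SD, n = 3), with a log2 fold change of 0.66 (SE 0.22, edgeR unadjusted p = 0.0220, adjusted p = 0.277). Without TG 2 Pam passed in edgeR at a log2 fold change of 0.81 (adjusted p = 0.0314, with 0.0314 to 0.956 over all alternatives), in the same fit that called 13.2% of all genes. Without TG 1, its highest library, the value was 0.43 (adjusted p = 0.550).

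**Figure D2:**
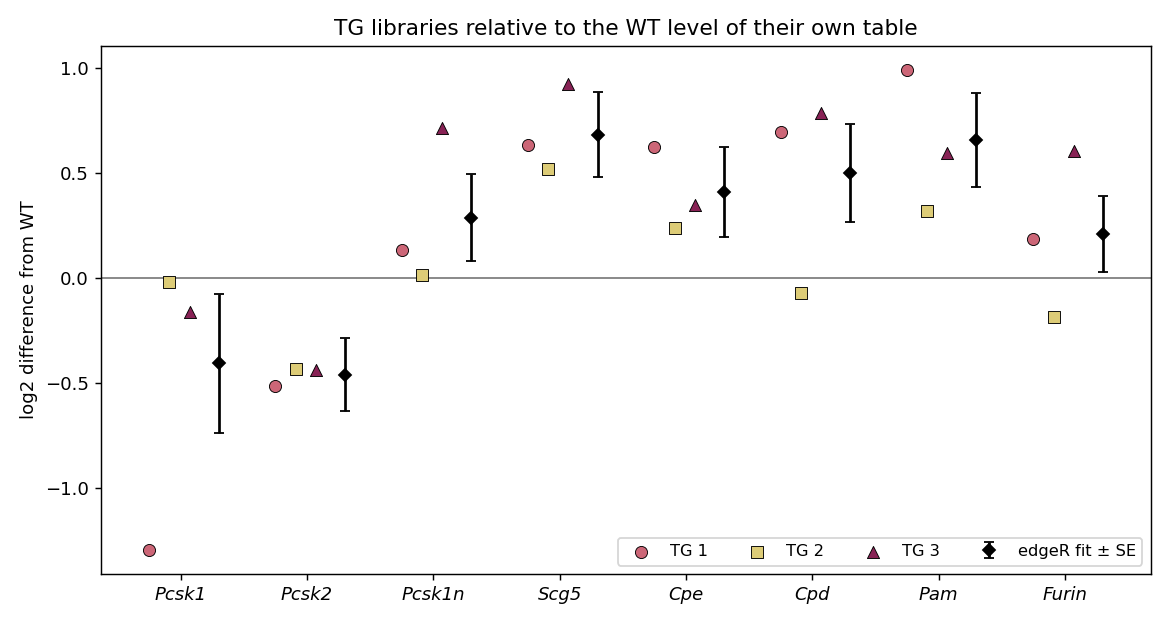
Log2 difference of each TG library from the WT level of its own table (colored symbols; the first table has 2 WT libraries, the second 1) and the edgeR log2 fold change with its SE (black diamonds). The symbols of Pcsk2 sit together between -0.51 and -0.43, whereas those of Pcsk1 span -1.29 to -0.02 and TG 2 is the lowest symbol for Pcsk1n, Scg5, Cpe, Cpd, Pam and Furin.

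The members thus showed several patterns across libraries. TG 2 was the TG library nearest to the WT level of its table for Pcsk1, Pcsk1n, Scg5, Cpe, Cpd and Pam, whereas Pcsk2 lay about equally far in TG 2 and TG 3 and Furin in TG 1 and TG 2. TG 2 was also the TG library with a WT-like share of beta-cell marker reads (20.6%), a sum made up mostly of Ins2, Iapp and Ins1. Other beta-cell markers were not all WT-like in TG 2. Its log2 distance from the WT level of its table was -0.83 for Mafa, -0.87 for Slc2a2 and -0.69 for Pdx1. That distance was -0.12 for Ins2 and 0.33 for Iapp, which alone lay above. Of the 10 beta-cell markers, 9 had lower fitted levels in TG, and their sum ran from 12.7% to 21.9% of counts in WT and from 5.98% to 20.6% in TG. Of the 9 tested alpha-cell markers 8 had higher fitted values, with sums of 1.77% to 2.80% in WT and 2.62% to 5.21% in TG. All 6 delta- and PP-cell markers had higher fitted values, with sums of 0.771% to 0.904% in WT and 1.21% to 4.05% in TG. All 7 tested duct markers did too, at 0.0710% to 0.0959% in WT and 0.136% to 0.207% in TG. Of the stellate and fibroblast markers 6 of 7 had higher fitted values, 4 of them at an unadjusted p under 0.05, with a median log2 fold change of 1.96 and sums of 0.00126% to 0.00739% in WT and 0.00179% to 0.0148% in TG. Of the Schwann-cell markers 4 of 5 were higher, all 4 at an unadjusted p under 0.05, with a median of 1.37 and sums of 0.00121% to 0.00232% in WT and 0.00164% to 0.00383% in TG. Of the endothelial markers 5 of 6 were higher, with 0.0209% to 0.0313% in WT and 0.0207% to 0.0506% in TG. Acinar markers had higher fitted values for 6 of 8 tested genes and macrophage and lymphocyte markers for 2 of 5, the latter with 0.00261% to 0.00535% in WT and 0.00204% to 0.00291% in TG. Other lists held genes at an unadjusted p under 0.05 too: 4 lower for beta-cell markers, and 3 higher and 1 lower for alpha-cell markers. There were 3 higher for delta- and PP-cell, 3 for duct and 1 for endothelial markers, and 2 lower for macrophage and lymphocyte markers. Over all genes, 9.32% were higher and 4.81% lower at that p. The Schwann-cell genes were low, with Cdh19 under 1 CPM and Sox10 at or under 5.40 CPM. None of these genes passed the edgeR threshold. The leading hormone genes of the endocrine lists were present in all libraries. The markers Loxl4, Cftr, Ptf1a, Cd3e and S100b, which did not pass the filter, were at 0 or under 1 CPM in every library. The part of these cell markers in the members' levels was not tested.

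Compared per length, within each library and on the deposited FPKM scale, Cpe was the highest member throughout, with FPKM of 1796 (WT 1), 1614 (WT 2) and 1876 (WT 3) against 2631 (TG 1), 2018 (TG 2) and 2362 (TG 3). Furin was the lowest, between 6.96 and 18.7 FPKM, and Cpd next, between 16.6 and 29.7 FPKM. Scg5 ranked next after Cpe in the 4 libraries of the first table and Pcsk1n in both of the second. The order of the 2 main convertases differed between libraries. Pcsk1 and Pcsk2 were near each other in WT 1 (227 and 221 FPKM), WT 2 (182 and 236 FPKM) and TG 2 (202 and 170 FPKM). Pcsk1 was well under Pcsk2 in TG 1 (83.4 and 161 FPKM), WT 3 (102 and 328 FPKM) and TG 3 (90.2 and 240 FPKM). FPKM use the authors' gene lengths, which are 3241 bases for Pcsk1 and 7910 for Pcsk2. The order of the 2 depends on these lengths, as Pcsk1 had fewer raw counts than Pcsk2 in every library.

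Ratios of 2 members within a library need no scaling factor, and 3 were compared between the genotypes, with exact two-sided permutation tests that cannot go below p = 0.1 with 3 libraries against 3. The ratio of Scg5 to Pcsk2 counts, chaperone to enzyme, was 0.692 (WT 1), 0.485 (WT 2) and 0.289 (WT 3) against 1.28 (TG 1), 1.12 (TG 2) and 0.740 (TG 3). Every TG library was above every WT library. That separation follows from Scg5 being higher and Pcsk2 lower in every TG library, as given above. The p of this ratio was thereby fixed at its floor, and it gives no separate support. The mean log2 ratio was 0.03 ± 0.41 in TG and -1.12 ± 0.63 in WT (SD, n = 3), a difference of 1.15 (exact permutation p = 0.1, the smallest possible, and 0.3 when adjusted over the 3 ratios). Measured from WT of the same table, the log2 distance was 1.15 for TG 1, 0.95 for TG 2 and 1.36 for TG 3.

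The other ratios did not separate the genotypes. The ratio of Pcsk1 to Pcsk2 counts was 0.420 (WT 1), 0.316 (WT 2) and 0.127 (WT 3) against 0.213 (TG 1), 0.485 (TG 2) and 0.154 (TG 3), and the mean log2 difference was -0.03 (exact permutation p = 1.0). TG 1 was below the WT level of its table and TG 2 and TG 3 above. The ratio of Pcsk1n to Pcsk1 counts, inhibitor to enzyme, was 0.946 (WT 1), 1.27 (WT 2) and 7.27 (WT 3) against 2.94 (TG 1), 1.12 (TG 2) and 13.3 (TG 3). Its mean log2 difference was 0.78 (exact permutation p = 0.6), and the difference between the tables was larger than that between the genotypes. The ratio tests had no table term, so that spread entered this p. With the WT level of each table subtracted, which sets WT 3 to 0, the exact permutation p was 0.2. The p of the other ratios did not change.

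**Figure D3:**
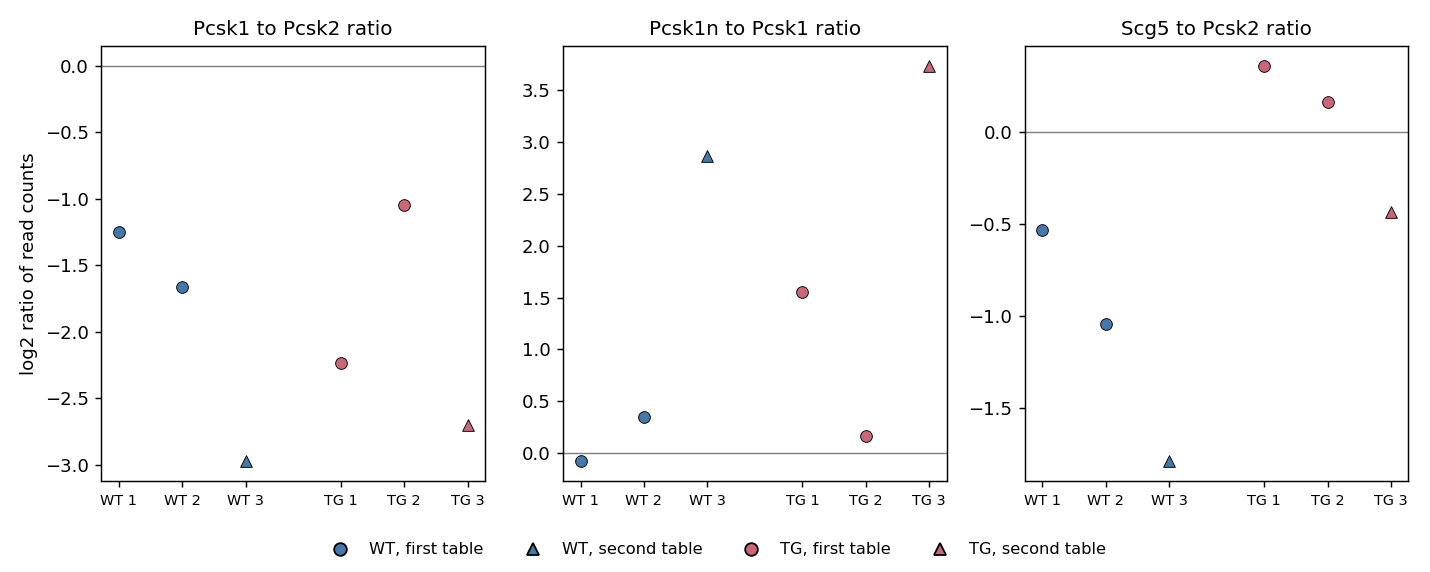
Log2 ratio of read counts of 2 members in each library; circles are libraries of the first table and triangles of the second. The Scg5 to Pcsk2 ratio is higher in all TG libraries (log2 -0.43 to 0.36) than in all WT libraries (-1.79 to -0.53), and the other 2 ratios overlap between the genotypes.

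The promoters of the convertases that process proinsulin were compared because their levels varied differently across the libraries. Of the 8 members, 7 have a promoter sequence in the RefSeq table (GRCm38.p6, 250 bases before to 50 after the start). The cyclic AMP response element (CRE) TGACGTCA, which binds CREB-family factors, and its shorter part TGACG were searched on both strands, and capitals mark them. A shorter match inside a full CRE overlaps it.
Pcsk1 (chr13:75089607-75089906, plus strand): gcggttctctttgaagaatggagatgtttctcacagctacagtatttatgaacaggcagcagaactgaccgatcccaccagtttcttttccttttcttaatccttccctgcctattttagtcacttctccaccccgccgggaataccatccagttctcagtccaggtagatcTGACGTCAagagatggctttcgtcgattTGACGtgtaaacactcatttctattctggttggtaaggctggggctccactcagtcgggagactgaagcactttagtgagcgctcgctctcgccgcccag
Pcsk2 (chr2:143545883-143546182, plus strand): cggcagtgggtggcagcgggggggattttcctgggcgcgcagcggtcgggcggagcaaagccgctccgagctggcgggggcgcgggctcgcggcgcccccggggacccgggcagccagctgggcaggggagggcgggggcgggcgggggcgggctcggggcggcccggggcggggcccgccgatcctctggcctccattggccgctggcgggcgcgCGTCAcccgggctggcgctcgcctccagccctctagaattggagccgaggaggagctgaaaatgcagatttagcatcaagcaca
Pcsk1 alone among the 7 held the full CRE, which begins 78 bases before the start and which 1.79% of all promoters in the table hold. The shorter motif, held by 20.8% of all promoters, was also in Pcsk1, Pcsk2, Scg5 and Furin. Furin and Pam have more than a single promoter entry, and the Furin entry at chr7:80402763-80403062 did not hold the motif. A match is a description of letters and not of binding. Creb1, which encodes a factor that binds such elements, was at 93.1 (WT 1), 84.1 (WT 2) and 69.5 (WT 3) CPM against 82.1 (TG 1), 99.0 (TG 2) and 58.4 (TG 3) CPM. Its log2 fold change was -0.06 (SE 0.14). Any part of these letters or of Creb1 in the convertase levels was not tested.

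Genes that work beside the members were described as lists, none of whose genes passed the edgeR threshold. Of 5 other convertases 3 had higher and 2 lower fitted levels, with a median log2 fold change of 0.11 against -0.01 over all genes. Pcsk5 was at or under 1.98 CPM in every library, with a log2 fold change of 1.17 (SE 0.85), Pcsk6 had -0.18 (SE 0.15) and Pcsk4 0.34 (SE 0.29). Another list held 8 tested genes for other carboxypeptidases or related proteins, an aminopeptidase, cathepsin L and glutaminyl cyclases. Of these 7 were higher, with a median log2 fold change of 0.19. The smallest p was that of Cpn1, a subunit of plasma carboxypeptidase N. Cpn1 was at 70.6 (WT 1), 70.2 (WT 2) and 132 (WT 3) CPM against 155 (TG 1), 85.9 (TG 2) and 199 (TG 3) CPM (edgeR adjusted p = 0.254). Qpct, a glutaminyl cyclase, was the lower gene, with a log2 fold change of -0.85 (SE 0.48), and Aebp1 had 1.03 (SE 0.64).

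Genes for the vacuolar proton pump, which acidifies the granules so that the convertases can work, lay mostly lower. Of the 16 tested, 15 had lower fitted levels in TG, with a median log2 fold change of -0.21, where 51.9% of all genes were lower. Atp6v0a2, Atp6v1c1 and Atp6v0a1, all pump subunits, were at log2 fold changes of -0.40 with an SE of 0.14, -0.33 with 0.14 and -0.30 with 0.13, and Atp6v0a2 was the 1 gene with an unadjusted p under 0.05. In every TG library 7 of the 16 lay below every WT library of the same table, a pattern shown by 13.4% of all genes. Of the 18 sorting and maturation genes 14 were lower and 4 higher, with a median of -0.12. Gga2 and Sort1, which sort cargo at the trans-Golgi network, were at -0.57 (SE 0.17) and -0.35 (SE 0.15) on the log2 scale, and Sorl1, a receptor of the sortilin family, had 1.34 (SE 0.40). The genes listed for copper and ascorbate supply were even in direction, with 4 of 8 higher and a median of -0.02. Of the 8, 2 (Atp7a and Slc23a2) lay below every WT library of the same table in every TG library, and 0 lay above. Atp7a, the copper pump that loads enzymes of the secretory pathway, had -0.28 (SE 0.13). Slc23a2, an ascorbate transporter, had -0.24 (SE 0.11), and Ccs, a copper chaperone, -0.33 (SE 0.18).

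The substrates of the enzymes spread far more widely than the enzymes. Of 20 tested prohormone and granin genes 15 were higher and 5 lower, with a median log2 fold change of 0.49 and a range from -2.99 (Ucn3) to 10.12 (Gast). At an unadjusted p under 0.05, 7 were higher and 1 lower, where 9.32% and 4.81% of all genes were. Gast and Cck were at or under 2.58 CPM in WT and in TG 2 and far higher in TG 1 and TG 3, with Gast at 1603 and 705 CPM and Cck at 930 and 460 CPM. Pdyn, the dynorphin precursor, was at 246 (WT 1), 222 (WT 2) and 134 (WT 3) CPM against 696 (TG 1), 348 (TG 2) and 585 (TG 3) CPM. All 3 TG libraries were above all WT libraries for Pdyn. The members' own log2 fold changes lay between -0.46 and 0.68. Of 9 transcription factors reported at convertase genes, 6 were higher, with a median of 0.14. Pdx1 had a log2 fold change of -0.73 (SE 0.14), Egr1 1.23 (SE 0.53) and Foxa2 0.19 (SE 0.12), while Pax6 and Neurod1 had 0.14 (SE 0.16) and 0.05 (SE 0.18).

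**Figure D4:**
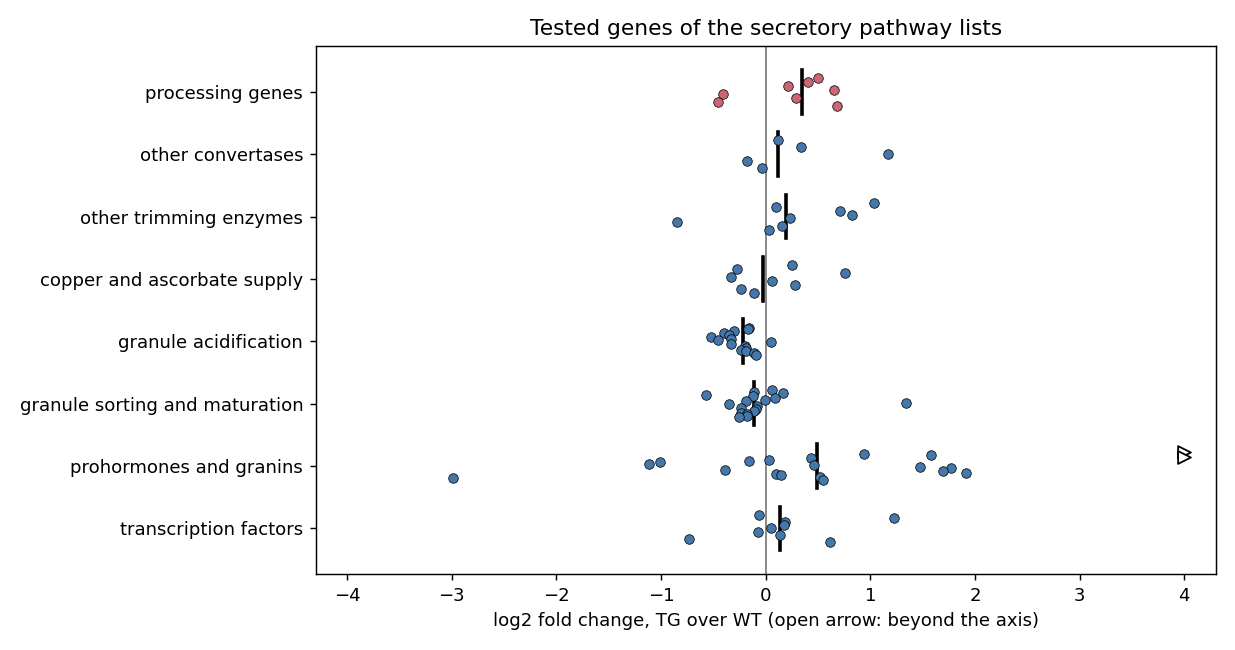
Log2 fold change (TG over WT, edgeR) of each tested gene in the 8 lists, 1 dot per gene, with the list's median as a black bar; open arrows mark Gast and Cck, which lie beyond the axis. The processing genes lie between -0.46 and 0.68 with a median of 0.35, the proton pump genes nearly all below 0, and the prohormones and granins spread widest.

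The genes most like each member across the 6 libraries were found by the root-mean-square (RMS) difference of log2 CPM after each gene's mean was subtracted, among 7686 other genes of at least 20 CPM on average. They were Psme2 and Zfp518a for Pcsk1 (RMS 0.16 and 0.16), Abcg1 and Zhx2 for Pcsk2 (0.05 and 0.07) and Mapk15 and Foxo6 for Pcsk1n (0.12 and 0.16). For Scg5 they were Serinc1 and Ggh (0.08 and 0.09), for Cpe Lrrc1 and Rmnd5a (0.06 and 0.06) and for Cpd Ckap4 and Junb (0.05 and 0.09). For Pam Rassf3 was the nearest (0.10), and for Furin Sobp and Fbrs (0.03 and 0.04). Within the member list the nearest pair was Cpe and Pam (RMS 0.15), and Cpe ranked at place 25 among the genes nearest to Pam. For Pcsk1, Pcsk2 and Furin the closest member lay far down the order: Pcsk2 at place 4393 for Pcsk1 (RMS 0.72), Furin at place 4534 for Pcsk2 and Pcsk2 at place 2868 for Furin (RMS 0.43 for that pair).

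Some members share ground with other annotated genes. Pcsk2 overlaps the antisense genes Pcsk2os1 and Pcsk2os2, Pcsk1n overlaps Eras on the opposite strand, Furin overlaps the antisense gene Gm44851, and Pam overlaps 5 small or noncoding genes. Whether the authors' counting used strand is not given in the sources used here. Reads of such pairs cannot be told apart. The overlapping genes' own counts were at most 1.18% of the count of the member they overlap, the highest being B230216N24Rik within Pam in TG 1.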

How the data were processed

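The authors deposited raw read counts per gene (whole numbers), a normalized signal per gene and FPKM values for 6 islet libraries in 2 sets of tables. The submitters' processing notes list CASAVA 1.8, HISAT2 and the build GRCm38 (mm10). The sources used here do not give the counter or the annotation release. The deposited normalized signal was near a fixed multiple of the raw count in each library, and the FPKM divide it by gene length, separately per table, per the file headers and values. Raw counts were joined on the gene ID and tested in R 4.3.3 with edgeR 4.0.16 (TMM, filterByExpr, quasi-likelihood F-test in its legacy form, table and genotype as terms, Benjamini-Hochberg over 16072 genes, threshold 0.05). The SE is the absolute log2 fold change over the square root of F. DESeq2 1.42.0, limma-voom (limma 3.58.1) and the settings of the closing section were alternatives. FPKM served only to compare members within a library and as an alternative for the ratios. Ratios were tested with SciPy 1.17.1. The fits were run on simulated counts with no table effect, no outlying library and the same dispersion for every gene. That simulation cannot show how the fits behave with the differences between libraries seen here. The members, lists and tests were chosen with earlier results of these data known. All 8 members were named; per pathway list the 3 genes with the smallest p were named, and the 2 nearest genes per member. One gene each of the convertase and the macrophage and lymphocyte lists, left out of their counts, medians and sums, and one near gene are not reported here. Ucn3, Creb1, Pax6, Neurod1 and the single cell markers named fall outside that rule and were named after their values were seen. Replicate numbers follow accession order.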

Additional observations from a re-analysis of the deposited data

How the results depend on the processing

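All 8 members kept the direction of their fitted log2 fold change under all 15 alternatives. These alternatives reuse the same counts and are not independent, and Furin lay at only 0.007 (SE 0.20) without WT 3. The edgeR count of 0 members and 0 genes past the threshold (2271 genes at an unadjusted p under 0.05) moved to 2 members (Pcsk2 and Scg5) and 752 genes with DESeq2, and to 0 members and 1672 genes without the low-count filter. With each replicate left out it ran from 0 to 2 members and from 0 to 2188 genes, and the 2 members (Cpd and Pam) and 2188 genes came without TG 2. RLE size factors, limma-voom (2235 genes at an unadjusted p under 0.05), the bias-adjusted form of edgeR with and without the filter (the latter chosen after seeing the data), hormone genes left out of library sizes, no table term and the first table only gave 0 of both. Across these settings the range of adjusted p was 0.0142 to 0.971 for Scg5, 0.0142 to 0.989 for Pcsk2, 0.0314 to 0.956 for Pam and 0.0223 to 0.9997 for Cpd. The log2 Pcsk1 to Pcsk2 ratio difference of -0.03 ran from -0.54 to 0.32 with a library left out, and it was above 0 without WT 1 (0.32), WT 2 (0.12), TG 1 (0.09) or TG 3 (0.32). That of Pcsk1n to Pcsk1 ran from -0.18 (without TG 3) to 1.69, and that of Scg5 to Pcsk2 from 0.82 to 1.45. Leaving out WT 3 or TG 3 takes the other library of the second table out of the contrast in edgeR. The ratios had no table term, so there the other library stayed in and the difference between tables entered the value. With the first table only, the difference was -0.18 for Pcsk1 to Pcsk2, 0.73 for Pcsk1n to Pcsk1 and 1.05 for Scg5 to Pcsk2. The interaction called 0 members in every setting run. No paired analysis was possible because the replicate numbers follow accession order and pair no samples.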

Other observations

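Relative to the insulin reads of the same library, the processing genes were all more abundant in TG 1 and TG 3 than in any WT library, a scale chosen after the values were seen. Per 1000 counts of Ins1 and Ins2 together, Cpe had 21.9 (WT 1), 18.5 (WT 2) and 38.4 (WT 3) counts against 190 (TG 1), 26.6 (TG 2) and 133 (TG 3) counts. Scg5 had 7.09 (WT 1), 4.97 (WT 2) and 7.34 (WT 3) counts against 56.6 (TG 1), 9.55 (TG 2) and 37.9 (TG 3). Pcsk1, whose own level was not higher in TG, had 4.31 (WT 1), 3.24 (WT 2) and 3.23 (WT 3) counts against 9.38 (TG 1), 4.13 (TG 2) and 7.88 (TG 3). Pcsk2, whose own level was lower, had 10.3 (WT 1), 10.3 (WT 2) and 25.4 (WT 3) counts against 44.1 (TG 1), 8.52 (TG 2) and 51.2 (TG 3). TG 2 lay within the WT range for Pcsk1 and below it for Pcsk2. These values contain the lower insulin counts of TG 1 and TG 3 in their denominator and were not tested. The share of all genes with the same pattern on this scale was not computed, so the pattern is not particular to the members.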
